A study of Mus musculus with 40 samples.

Results

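The 36 genes described here are transcripts of the G2 phase and of mitosis, the part of the cell cycle in which a cell with copied DNA condenses its chromosomes, attaches them to the spindle, separates them and divides. They were chosen by name as G2/M and mitotic genes, not by a threshold on their values, and 36 of 36 were found among the 39056 rows of the gene count table. All 36 passed the filter on low counts, as did 15135 genes in all. By role, 7 drive mitotic entry, 6 belong to the spindle checkpoint and the anaphase-promoting complex (APC/C), 6 to centromeres and kinetochores, 4 to chromosome structure, 6 to the spindle, and 7 to the central spindle and cytokinesis. They were followed in bulk RNA sequencing of developing oligodendrocytes, the glia that make myelin, from wild-type C57BL/6 mice aged 6 to 7 days. Per the labels, progenitors were immunopanned from cortex, although the tissue label reads whole brain, were carried through 2 passages, and had differentiated for 12 to 14 h when plates were assigned at random. Cells were left untreated or received interferon-gamma (IFN-gamma, a T cell and natural killer cell cytokine) at 200 U/ml, each sampled at 1, 8, 24 and 48 h, or received thapsigargin (a blocker of the endoplasmic reticulum calcium pump that causes endoplasmic reticulum stress) at 200 uM as labelled, sampled at 1 and 8 h. Each of the 10 groups held 4 libraries, 40 in all, and every group shares the same wild-type background and the same passages. Nothing in the labels says whether the 4 libraries of a group came from separate cultures or animals, so the p-values measure the spread between libraries only.

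The libraries held 13165483 to 22651092 reads on genes. Treated libraries carried the mark of their label at the times given here: Gbp2, a guanylate-binding protein gene that IFN-gamma induces, lay at 3876 to 5417 CPM (reads of a gene scaled to a fixed library total) in IFN-gamma 48 h libraries against 0.216 to 0.369 CPM in untreated ones, and Hspa5, an endoplasmic reticulum chaperone, at 9338 to 10252 CPM after 8 h of thapsigargin against 589 to 689.7 CPM. The oligodendrocyte lineage genes Olig2, Sox10 and Pdgfra were read in every library. Microglial, endothelial and fibroblast marker lists, over their genes that passed the filter on low counts, summed to at most 4.31, 14.4 and 13.3 CPM in any library. In the microglial list P2ry12 alone passed. The following 3 libraries stood apart in the mitotic genes. Untreated 24 h replicate 4 was the lowest of its group in 36 of 36 genes, untreated 48 h replicate 2 was the highest of its group in 35 of 36, and IFN-gamma 48 h replicate 1 was the highest of its group in 36 of 36. Where leaving out such a library changed a count of called genes among the 36, the changed count is given too. Medians, percentages and levels include these libraries unless stated. Summed over 4 Y-linked genes, 8 IFN-gamma libraries of 16 had a level below 10 CPM, every untreated library had at least 144 CPM, and the low libraries at 48 h were IFN-gamma replicates 1 and 3. Xist, a transcript of female cells, lay at 320 to 718 CPM in those 8 libraries and at most at 183 CPM in untreated ones. Some thapsigargin libraries also lay outside these untreated limits. For 1 h replicate 2 the Y-linked sum was 29.6 CPM, with Xist reaching 423 CPM. For 8 h replicate 2 the sum was 25 CPM, with Xist reaching 729 CPM. Thapsigargin 8 h replicate 4 exceeded the untreated limit in Xist alone (250 CPM). The IFN-gamma groups, and single thapsigargin libraries, thus differed from the untreated groups in sex-linked levels as well as in treatment. Effects of sex-linked levels and of treatment cannot be fully told apart here.

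Mitotic entry is set by cyclin-dependent kinase 1 (Cdk1) with its cyclin partners, and mitotic exit by the APC/C, a ubiquitin ligase that destroys cyclin B and securin once the spindle checkpoint is satisfied. Most of these genes are transcribed in a wave that peaks in G2 and mitosis, driven by the MuvB complex with B-Myb (Mybl2) and FoxM1, and kept off in resting cells by the DREAM complex, which holds MuvB with p130 and E2F4. MuvB reads a short promoter element, the cell cycle genes homology region (CHR), often beside CCAAT boxes that bind NF-Y. Oligodendrocyte progenitors divide, and they leave the cell cycle as they differentiate into myelin-forming cells, so that the level of these transcripts follows the dividing share of a culture as well as the output of each cell.

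Promoter windows of 300 bases, from 250 before to 50 after the RefSeq start (GRCm38.p6), were matched by symbol for 30 of the 36 genes. The CHR letters TTTGAA, on either strand, stood in the windows of 22 of these 30 genes (73.33%), against 20.23% of the 27025 genes with a window and 14.03% of the genes tested here. Among 48 other mitotic genes with a window the share was 64.58%, and among 29 DNA replication genes 13.79%. With the variant TTCGAA the count was 23 of 30, and in 21 of those 23 genes the letters lay within the stretch from 40 bases before to 50 bases after the start. No share of all genes was computed for that stretch. In the 100 bases before the start, either form stood in 7 of the 30 genes (23.33%). There the shares were 4.46% of the genes tested and 31.25% of the other mitotic genes. CCAAT, on either strand, was present in 73.33% of the 30 genes against 41.06% of all genes, 70.83% of the other mitotic genes and 62.07% of the DNA replication genes. The E2F-type letters TTTGGCGC or TTTCCCGC, on either strand, were in none of the 30, where 1.8% of all genes and 3.38% of the genes tested held them, so that none among 30 is near the share of all genes. They were in 10 of the 29 DNA replication genes (34.48%). Each motif was counted by itself, so that matches to different motifs may overlap. These matches describe letters, not binding, and many of these genes are textbook examples of CHR genes. The 100 bases before the start are printed for 5 genes whose values recur below and whose CHR letters fall there, with those letters in capitals, as TTTGAA or, where the element lies on the other strand, as TTCAAA. The windows are chr10:69352913-69353012 on the reverse strand, chr4:118437344-118437443 on the reverse strand, chr11:99024190-99024289 on the reverse strand, chr19:37376282-37376381 on the forward strand and chr2:164769829-164769928 on the forward strand.
Cdk1: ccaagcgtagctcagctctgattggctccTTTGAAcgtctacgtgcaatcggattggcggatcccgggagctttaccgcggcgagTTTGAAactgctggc
Cdc20: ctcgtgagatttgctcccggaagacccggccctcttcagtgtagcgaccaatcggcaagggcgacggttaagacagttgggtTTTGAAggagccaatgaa
Top2a: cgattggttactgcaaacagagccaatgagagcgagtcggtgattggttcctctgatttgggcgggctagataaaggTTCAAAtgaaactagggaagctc
Kif11: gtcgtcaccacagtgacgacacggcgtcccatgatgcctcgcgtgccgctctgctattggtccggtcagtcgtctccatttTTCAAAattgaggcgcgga
Ube2c: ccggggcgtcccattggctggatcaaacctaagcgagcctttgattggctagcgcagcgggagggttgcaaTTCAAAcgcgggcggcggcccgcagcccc
Cdk1 carries the letters at 2 places in this stretch, with CCAAT boxes between and before them on the other strand (attgg), and Cdc20 carries them just before a CCAAT box that lies next to the start.

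In untreated cells the mitotic genes fell as a block between 24 and 48 h. The summed level of the 36 genes was 8451, 9043, 9141 and 8597 CPM in the 4 libraries at 1 h, 8055, 7779, 8264 and 7372 at 8 h, 7302, 7300.1, 7625 and 4374 at 24 h and 2534, 4293, 2394 and 3046 at 48 h. Relative to untreated cells at 1 h, the median gene stood at 90.9% at 8 h, 75.7% at 24 h and 34.8% at 48 h. At 48 h the gene that kept most was Anln at 54.4% and the one that kept least was Aurkb at 26.4%. In bulk RNA, fewer dividing cells and less RNA of these genes per cell cannot be told apart.

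**Figure D1:**
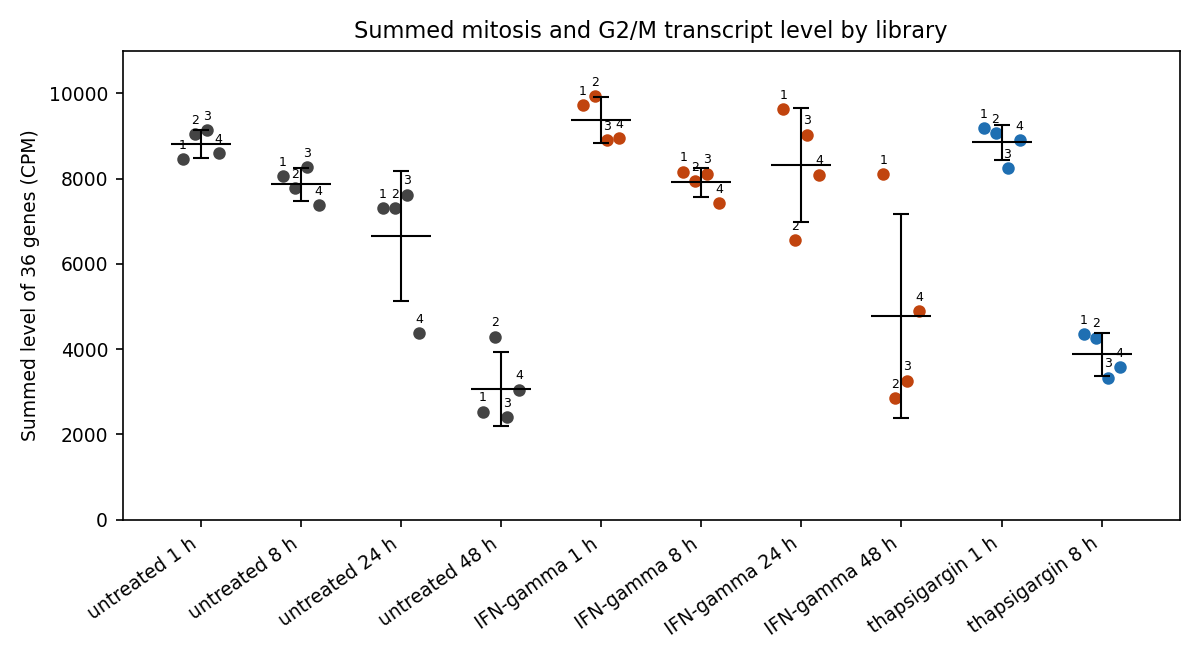
Summed level of the 36 genes in CPM (vertical axis) in each of the 40 libraries, by group (horizontal axis); points are libraries with their replicate number, lines are group means and bars are SD (n = 4). The untreated libraries at 48 h and the thapsigargin libraries at 8 h sit low, IFN-gamma 48 h replicate 1 at 8099 CPM lies within the range of the 24 h libraries, and untreated 24 h replicate 4 at 4374 CPM lies near the 48 h level.

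Between 24 and 48 h without treatment, 36 of 36 genes were called lower, where 18.7% of all 15135 genes tested were (edgeR's quasi-likelihood test, Benjamini-Hochberg adjusted p under 0.05 over all genes). The median log2 fold change was -1.15 against -0.01 over all genes tested, and the range ran from -1.25 in Aurkb, the kinase of the chromosomal passenger complex, to -0.62 in Anln, the anillin scaffold of the contractile ring, which also helps to assemble septins in myelin. The libraries of the groups did not overlap in 23 of 36 genes, against 9.05% of all genes. Against untreated cells at 1 h, 36 of 36 were lower at 48 h, with 30.4% of all genes called lower, and the median was -1.52 against 0.00 over all genes. Between 1 and 8 h no gene of the 36 was called in either direction (6.93% of all genes were), with 0 at an unadjusted p under 0.05 and 0 by DESeq2, although 15 were called in a fit on those 2 groups alone. The libraries were lower without overlap in 15 of 36 genes over those hours, against 1297 of all 15135 genes. Between 8 and 24 h the count was again 0 (0.35% of all genes), with 0 at an unadjusted p under 0.05 and 0 by DESeq2.

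Cdk1, the kinase that starts mitosis, was at 208, 195, 208 and 114 CPM in the 4 untreated libraries at 24 h and at 69, 109, 58.1 and 77.6 CPM at 48 h. Every 48 h library lay below every 24 h library, the nearest pair being the 2 that stood apart, replicate 4 at 24 h and replicate 2 at 48 h. The log2 fold change was -1.20 ± 0.22 (SE; adjusted p = 7.8e-05). Ccnb1, cyclin B1, which activates Cdk1, went from 324, 317, 335 and 182 CPM to 101, 187, 89.8 and 119 CPM. Here those same 2 libraries overlapped, at 182 and 187 CPM, and the fold change was -1.22 ± 0.21 (SE; adjusted p = 3.8e-05). Mki67, the Ki-67 protein that coats mitotic chromosomes and is the usual marker of dividing cells, went from 624, 686, 691 and 353 to 209, 381, 242 and 289 CPM, a fold change of -1.07 ± 0.22 (SE; adjusted p = 2.9e-04). Cenpa, the histone H3 variant of centromeres, went from 108, 99.7, 103 and 59.3 to 33.9, 62.4, 35.3 and 34.9 CPM, a fold change of -1.15 ± 0.23 (SE; adjusted p = 2.0e-04), and its replicate 2 at 48 h was again the high library. Leaving out any single library of the 24 h or 48 h group kept the count at 36 of 36. Without untreated 48 h replicate 2 and IFN-gamma 48 h replicate 1 together it was also 36, with a median of -1.38. In library numbers 1 to 20 alone, with 2 libraries a group including untreated 48 h replicate 2, no gene was called and the median was -1.11, while in numbers 21 to 40 it was 36 with a median of -1.25.

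The myelin genes moved the other way over the same hours. The 11 premyelinating and myelin markers were all called higher at 48 h than at 24 h (21.9% of all genes were), with a median log2 fold change of 2.41. Their summed level was 3608, 3662, 4088 and 8444 CPM in the 4 libraries at 24 h and 17469, 6953, 21601 and 20768 CPM at 48 h. The library with the highest mitotic sum at 48 h, replicate 2, had the lowest myelin sum, and the one with the lowest mitotic sum at 24 h, replicate 4, had the highest myelin sum. None of the 11 was at 0 in any library. The summed progenitor markers (9 genes) ran from 8038 to 8537 CPM at 24 h and from 5357 to 8598 CPM at 48 h. The part of this maturation state in the mitotic values was not tested.

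**Figure D2:**
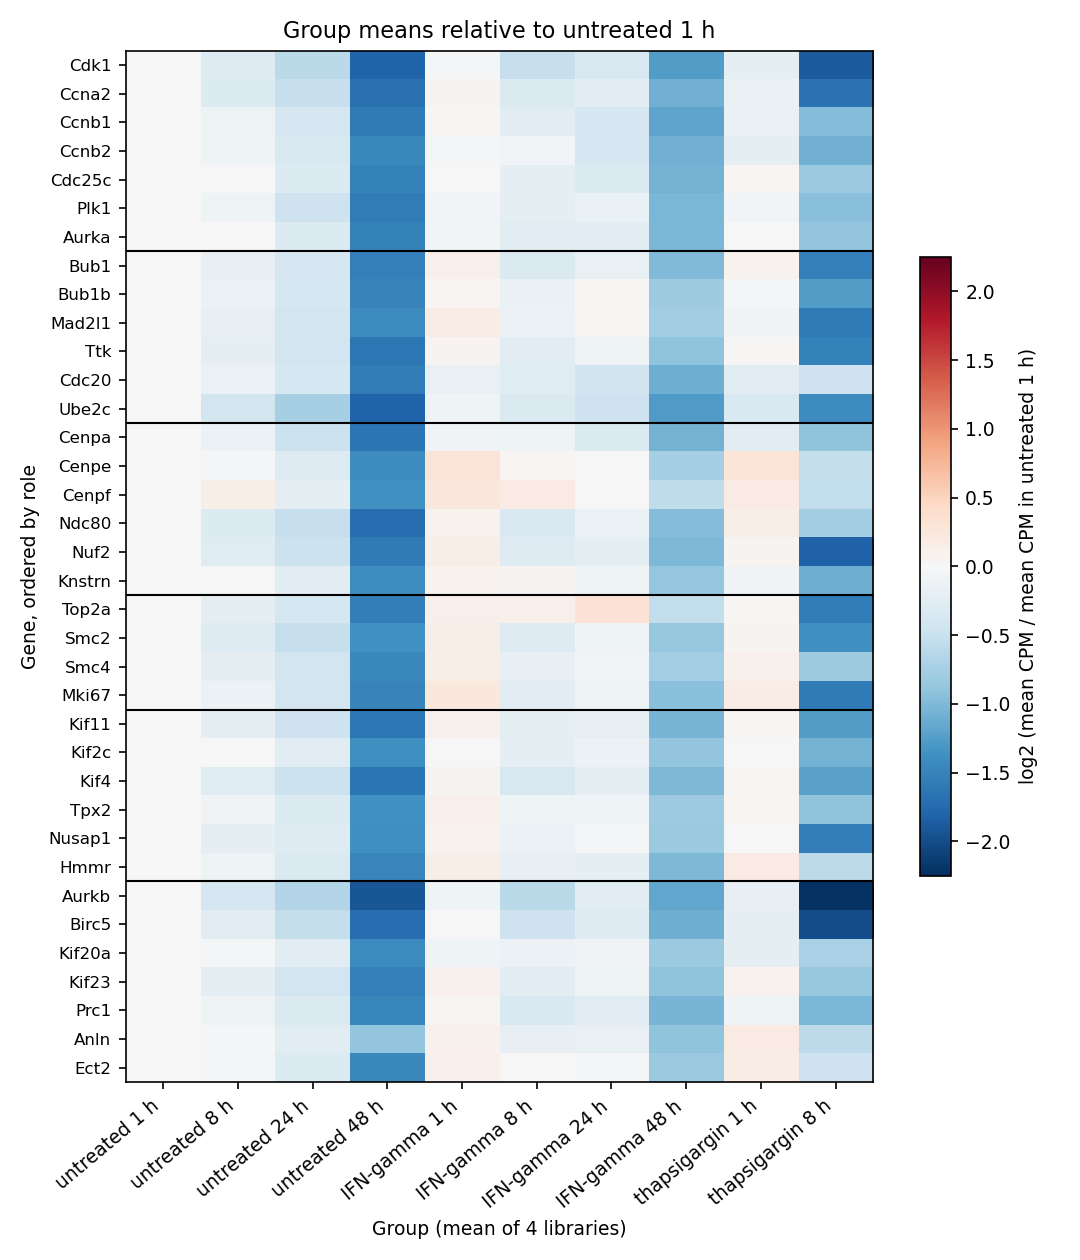
Group mean of each of the 36 genes (rows, in order of role, with lines between roles) as log2 of its ratio to the untreated 1 h mean, for the 10 groups (columns, 4 libraries each); blue is lower and red is higher. The untreated 48 h and thapsigargin 8 h columns are blue in all rows, and IFN-gamma 24 h shows Top2a at 124.5% of the untreated 1 h mean beside a median gene of 89.6%.

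No mitotic gene was called with IFN-gamma at 1 or 8 h. At 1 h none of the 36 was called in either direction (1.29% of all genes were) and the median log2 fold change was 0.07, against 0.00 over all genes, with 0 of 36 at an unadjusted p under 0.05 and 0 by DESeq2. In IFN-gamma 1 h replicate 2, 1 gene took 23.3% of the reads on genes, against at most 7.63% in any other library. Leaving out any single library of the 1 h groups kept the count at 0. At 8 h again none was called, where 25.2% of all genes were, with a median of -0.05 against -0.03, 0 at an unadjusted p under 0.05 and 0 by DESeq2. A fit on the 8 h groups alone called 5 of 36. At 24 h the median was 0.26 against -0.01 over all genes, and it ran from 0.05 to 0.43 over the alternative fits. Of the 36 genes 1 was called higher (12.6% of all genes were). That gene was Top2a, DNA topoisomerase II alpha, which untangles sister chromatids so that they can separate.

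Top2a stood at 1133, 1144, 1199.8 and 659 CPM in the 4 untreated libraries at 24 h and at 1937, 1293, 1873 and 1689 CPM in the 4 IFN-gamma libraries. Every IFN-gamma library lay above every untreated one, which held for 1 of the 36 genes and for 2033 of all 15135. The log2 fold change of Top2a was 0.72 ± 0.20 (SE; adjusted p = 0.0088). Over 36 exact two-sided permutation tests of the 8 libraries, 1 gene, Top2a, fell under 0.05, at p = 0.0286, the smallest that 70 splits allow. Benjamini-Hochberg adjusted over the 36 permutation tests, its p was 0.54, so that it did not pass by this test. Without untreated 24 h replicate 4 the quasi-likelihood call was lost (log2 fold change 0.56, adjusted p = 0.055). At 8 h Top2a was at 1177, 1141, 1262 and 1113 CPM without and 1489, 1478, 1517 and 1398 CPM with IFN-gamma, a fold change of 0.33 ± 0.20 (SE; adjusted p = 0.26), again without overlap between the libraries but short of the threshold. Higher levels without overlap were found at 8 h in 1 of the 36 genes and in 2240 of all 15135. The other chromosome structure genes at 24 h did not pass: Smc2 and Smc4, the condensin subunits that compact chromosomes, had fold changes of 0.43 ± 0.17 and 0.37 ± 0.20 (adjusted p = 0.065 and 0.19). At 24 h the astrocyte markers summed to 560.1 to 645 CPM with IFN-gamma against 316 to 412 CPM, and 2 of 8 were called higher (12.6% of all genes were). Their part in the Top2a value was not tested.

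At 48 h the summed level was 2534, 4293, 2394 and 3046 CPM in untreated cells and 8099, 2841, 3258 and 4887 CPM in IFN-gamma cells. Group means were 3067 ± 864 and 4771 ± 2388 CPM (SD, n = 4), and the libraries overlapped, with the highest IFN-gamma value in replicate 1 and the lowest in replicate 2. In the fit of all 40 libraries 25 of 36 genes were called higher, where 16.9% of all genes were, and none was called lower. The median log2 fold change was 0.56 against 0.00 over all genes. Yet the libraries of the groups overlapped in all 36 genes (9.59% of all genes were higher without overlap). The calls were 3 of 7 mitotic entry genes, 4 of 6 checkpoint and APC/C genes, 5 of 6 centromere and kinetochore genes, 4 of 4 chromosome structure genes, 4 of 6 spindle genes and 5 of 7 central spindle and cytokinesis genes.

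Top2a had the largest change at 48 h, with 395, 630.3, 355 and 479.9 CPM in untreated and 1586, 556, 629 and 942 CPM in IFN-gamma libraries and a difference on the log2 scale of 1.00 ± 0.20 (SE; adjusted p = 2.0e-04). Its replicate 1 value with IFN-gamma lay above every untreated library of 24 h, while replicates 2 and 3 lay below untreated replicate 2. Cenpf, a kinetochore and nuclear matrix protein of G2, was at 83.2, 157, 99.7 and 116 CPM and 335, 114, 139 and 197 CPM, a fold change of 0.78 ± 0.21 (SE; adjusted p = 0.0031). Aurkb was at 26.9, 42.8, 23.5 and 32.1 and 91.6, 28.7, 34.4 and 56.5 CPM, a fold change of 0.75 ± 0.23 (SE; adjusted p = 0.01). In both genes replicates 2 and 3 with IFN-gamma lay inside the untreated range and replicates 1 and 4 above it. Cdk1 was at 69, 109, 58.1 and 77.6 and 193, 62.1, 78.8 and 125 CPM, a fold change of 0.55 ± 0.22 (SE; adjusted p = 0.049), which is close to the threshold.

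The B-type cyclins did not pass at 48 h. Ccnb1 was at 101, 187, 89.8 and 119 CPM without and 268, 95.2, 119 and 179 CPM with IFN-gamma, a fold change of 0.41 ± 0.21 (SE; adjusted p = 0.12). Ccnb2, cyclin B2, was at 26.7, 56.7, 24.5 and 33.8 and 77.6, 25.5, 34.2 and 45.4 CPM, a fold change of 0.36 ± 0.21 (SE; adjusted p = 0.19). Anln was at 48.9, 58.1, 54.3 and 64.5 and 90.1, 36.9, 39.6 and 55.1 CPM, a fold change of -0.02 ± 0.16 (SE; adjusted p = 0.93), and 2 of its 4 IFN-gamma libraries lay below every untreated one. Cdc20, the APC/C activator that triggers anaphase, was at 63.8, 113, 56.2 and 76.8 and 180.3, 60.4, 76.8 and 113 CPM, a fold change of 0.47 ± 0.21 (SE; adjusted p = 0.08). Cenpa was at 33.9, 62.4, 35.3 and 34.9 and 110.5, 35.6, 41 and 59.4 CPM, a fold change of 0.56 ± 0.23 (SE; adjusted p = 0.053). In each of these 5 genes replicate 1 with IFN-gamma was above every untreated library, and replicate 2 lay inside or below the untreated range. Mki67, at 209, 381, 242 and 289 CPM without and 739, 242, 285 and 384 CPM with IFN-gamma, had a fold change of 0.56 ± 0.22 (SE; adjusted p = 0.046). Kif11, the kinesin that pushes spindle poles apart, was at 135, 221, 117 and 149.6 and 403, 141, 146 and 241 CPM, a fold change of 0.58 ± 0.21 (SE; adjusted p = 0.025). Next to Top2a, Cenpf and Aurkb, the largest changes were in the kinetochore gene Ndc80 at 0.72 ± 0.21 and the checkpoint kinase gene Ttk at 0.71 ± 0.20, and the remaining genes that did not pass had fold changes from 0.42 in Prc1 to 0.53 in Ube2c.

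**Figure D3:**
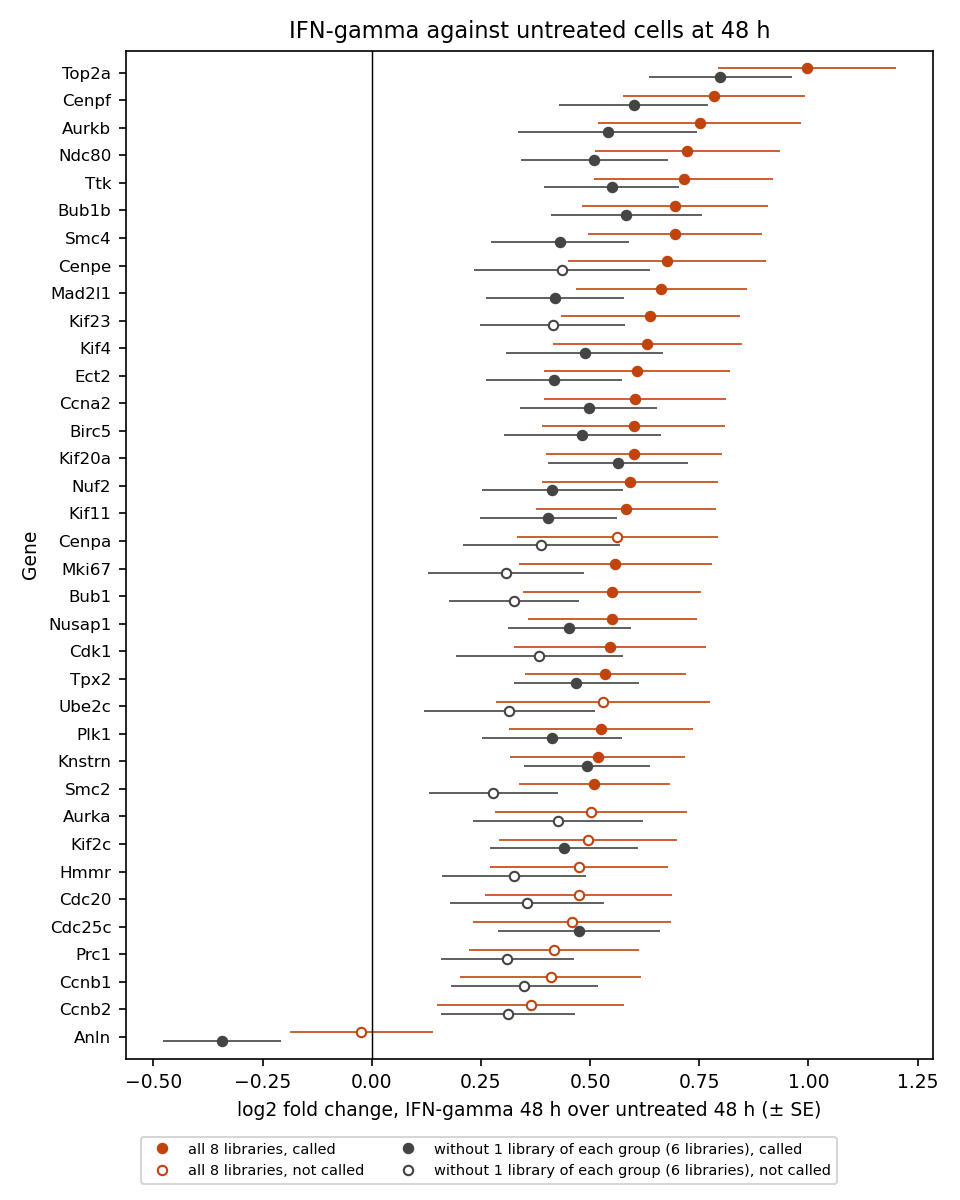
Log2 fold change of IFN-gamma over untreated cells at 48 h (horizontal axis, ± SE) for each of the 36 genes (vertical axis), with all 8 libraries (orange) and without untreated replicate 2 and IFN-gamma replicate 1 (grey); filled points were called at an adjusted p under 0.05. The median is 0.56 with all libraries and 0.42 without the 2, and Anln is the only gene below 0 in either fit.

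Without untreated 48 h replicate 2 and IFN-gamma 48 h replicate 1, the libraries at the far ends of their groups, 21 of 36 genes were called higher and 1 lower, with 15.1% of all genes called higher, and the median log2 fold change was 0.42. Of the 25 genes called with all libraries, 19 were also called without the 2. Top2a then had a fold change of 0.80 ± 0.16 (SE; adjusted p = 1.9e-04), Cenpf of 0.60 ± 0.17 (SE; adjusted p = 0.0055) and Aurkb of 0.54 ± 0.21 (SE; adjusted p = 0.04). Cdk1, at 0.38 ± 0.19 (SE; adjusted p = 0.12), and Mki67, at 0.31 ± 0.18 (SE; adjusted p = 0.19), no longer passed, and Anln was the gene called lower, at -0.34 ± 0.14 (SE; adjusted p = 0.048).

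Single libraries decided the count. Leaving out IFN-gamma replicate 1 alone left 1 gene higher and 1 lower with a median of 0.19, while leaving out untreated replicate 2 alone gave 35 higher with a median of 0.81. Leaving out untreated replicate 1, 3 or 4 gave 8, 9 and 15, and leaving out IFN-gamma replicate 2, 3 or 4 gave 35, 34 and 17. The spread behind these calls is pooled over 10 groups, most of them tighter than the 48 h groups: a fit on the 2 groups at 48 h alone called 0 of 36 at the same median (0.56), and an exact two-sided permutation test over the 8 libraries reached p = 0.0857 at the lowest, in Top2a, where 0.0286 is the smallest it can give. When the fit held a Y-linked covariate the count was 9, in library numbers 1 to 20 alone it was 1, and in numbers 21 to 40 alone 15.

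The myelin markers again ran opposite. All 11 were called lower with IFN-gamma at 48 h (19.9% of all genes were), with a median log2 fold change of -1.94. Their summed level was 1818, 6888, 8807 and 5913 CPM in the 4 IFN-gamma libraries, against 6953 to 21601 CPM in untreated ones, and replicate 1, the library highest in mitotic genes, was the lowest of the 4. The summed progenitor markers ran from 6848 to 7909.8 CPM with IFN-gamma and from 5357 to 8598 CPM without. Astrocyte markers summed to 444 to 587 and 352 to 465 CPM, with 3 of 8 called higher and 2 lower, and 3 of 7 neuron markers tested were called higher. Over all genes 16.9% were called higher and 19.9% lower. The part of these lists in the mitotic result was not tested.

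Within IFN-gamma cells the mitotic genes were also lower at 48 h than at 24 h, after a smaller step down between 1 and 8 h. The summed level was 9627, 6549, 9029 and 8092 CPM at 24 h and 8099, 2841, 3258 and 4887 CPM at 48 h, with replicate 1 at 48 h inside the 24 h range. Of the 36 genes 35 were called lower (8.02% of all genes were), all but Cenpf, with a median of -0.80 against 0.00 over all genes. The libraries overlapped in all 36, against 2.81% of all genes lower without overlap. The count was 36 without IFN-gamma 48 h replicate 1, 0 without replicate 2 or without replicate 3, 1 without IFN-gamma 24 h replicate 1, and 0 in a fit on the 2 groups alone. Without IFN-gamma 48 h replicate 1 and untreated 48 h replicate 2 together it was 36, with a median of -1.16. Against IFN-gamma cells at 1 h, 36 of 36 were lower at 48 h (25% of all genes were). None was called in either direction between 1 and 8 h with IFN-gamma (34.6% of all genes), with 8 at an unadjusted p under 0.05, 1 by DESeq2 and 28 in a fit on those groups alone. Over those hours all 36 fold changes were below 0, with a median of -0.28. The libraries were lower without overlap in 25 of 36 genes, against 3034 of all 15135 genes. None was called between 8 and 24 h (9.05% of all genes), with 0 at an unadjusted p under 0.05 and 0 by DESeq2.

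The change of the IFN-gamma effect between times was tested as an interaction. Between 8 and 24 h 0 of 36 genes differed (1.34% of all genes did, 1 of the 36 at an unadjusted p under 0.05), and between 24 and 48 h again 0 (1.68%, 0 at an unadjusted p under 0.05), and DESeq2 also called 0 in both. Between 8 and 48 h 2 were called higher and none lower, where 7.2% of all genes were: Aurkb, with a difference of 0.99 ± 0.32 (SE; adjusted p = 0.031), and Birc5 (survivin, which tethers the chromosomal passenger complex to centromeres), with 0.83 ± 0.29 (SE; adjusted p = 0.047). At 8 h Aurkb had a log2 fold change of -0.24 ± 0.23 and at 48 h of 0.75 ± 0.23. Over the 16 fits that leave out 1 library each the count ran from 0 to 30: it was 0 or 1 without untreated 48 h replicate 1, 3 or 4, IFN-gamma 48 h replicate 1 or 4, or any 8 h library, and 30, 25 and 20 without untreated 48 h replicate 2, IFN-gamma 48 h replicate 2 and IFN-gamma 48 h replicate 3.

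Thapsigargin lowered most mitotic genes within 8 h. The summed level was 8055, 7779, 8264 and 7372 CPM in untreated and 4353, 4261, 3331 and 3568 CPM in thapsigargin libraries at 8 h, with no overlap. At 8 h 33 of 36 genes were called lower (31% of all genes were) and none higher, and the libraries did not overlap in 35 of 36, against 28.9% of all genes. The median log2 fold change was -0.95 against -0.01 over all genes. The 3 genes not called were Cdc20, Ect2 and Cenpe. In library numbers 1 to 20 alone, with 2 libraries a group, 17 were called at a median of -0.86, and in numbers 21 to 40 alone 34 at -1.02.

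The falls differed in size from gene to gene, also within a role. Among the central spindle and cytokinesis genes, Aurkb went from 102, 95.1, 92.5 and 76.7 CPM to 31.6, 27.2, 21.1 and 22 CPM, the largest fall of the 36 at -1.84 ± 0.24 (SE; adjusted p = 2.5e-08). Birc5, from the same complex, followed with -1.75 ± 0.21 (SE; adjusted p = 8.8e-09). The other 5 genes of that role fell less or did not pass: Prc1, which bundles central spindle microtubules, had a fold change of -0.92 ± 0.20, Kif20a and Kif23, kinesins of the midzone, -0.70 ± 0.20 and -0.66 ± 0.20, Anln -0.55 ± 0.16, and Ect2, the exchange factor that switches on RhoA at the furrow, -0.44 ± 0.21 (SE; adjusted p = 0.069).

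All 7 mitotic entry genes were lower. Cdk1 went from 255, 223, 226 and 189 CPM to 88.9, 80.3, 65.3 and 65 CPM, a fold change of -1.57 ± 0.22 (SE; adjusted p = 1.8e-07). Ccna2, cyclin A2 of S and G2 phase, fell by 1.35 on the log2 scale. Ccnb1 went from 375, 344, 347 and 311 to 222, 202, 169 and 169 CPM, a fold change of -0.85 ± 0.21 (SE; adjusted p = 5.8e-04). Ccnb2, the phosphatase gene Cdc25c that activates Cdk1, and the kinase genes Plk1 and Aurka had fold changes of -0.98 ± 0.21, -0.81 ± 0.22, -0.85 ± 0.21 and -0.91 ± 0.22.

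Of the checkpoint and APC/C genes 5 of 6 were lower. The checkpoint kinases Bub1 and Ttk, the pseudokinase Bub1b and the checkpoint effector Mad2l1 had fold changes of -1.36 ± 0.21, -1.32 ± 0.20, -1.12 ± 0.21 and -1.39 ± 0.20, and Ube2c, the ubiquitin-conjugating enzyme of the APC/C, -1.03 ± 0.24. Cdc20 was at 239, 216, 207 and 181 CPM without and 196, 179.9, 145 and 151 CPM with thapsigargin, the 1 gene whose libraries overlapped, and its fold change was -0.33 ± 0.21 (SE; adjusted p = 0.18). Among centromere and kinetochore genes, Nuf2 and Ndc80, which pair in the complex that grips microtubules, had fold changes of -1.53 ± 0.20 and -0.48 ± 0.21. Knstrn, a spindle and kinetochore adaptor, had -1.09 ± 0.20, Cenpa -0.78 ± 0.23, Cenpf -0.68 ± 0.21, and Cenpe, the kinesin that brings chromosomes to the spindle equator, -0.50 ± 0.23 (SE; adjusted p = 0.056).

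The 4 chromosome structure genes were all lower. Mki67 went from 655, 644, 815 and 776 CPM to 279, 297, 215 and 267 CPM, a fold change of -1.45 ± 0.23 (SE; adjusted p = 9.7e-07), and Top2a from 1177, 1141, 1262 and 1113 to 529, 509, 388 and 416 CPM, a fold change of -1.35 ± 0.21 (SE; adjusted p = 7.3e-07). The condensin subunits Smc2 and Smc4 had -1.10 ± 0.17 and -0.59 ± 0.20. Among the 6 spindle genes, Nusap1, a microtubule bundler, fell by 1.35 on the log2 scale and Hmmr, a spindle pole protein, by 0.48. Kif11 went from 438, 416, 438 and 381 to 227, 220.0, 175 and 180.3 CPM, a fold change of -1.06 ± 0.21 (SE; adjusted p = 3.7e-05). Kif2c, a microtubule depolymerase, Kif4, a chromosome kinesin, and Tpx2, the activator of Aurora A, had -1.07 ± 0.20, -0.92 ± 0.22 and -0.84 ± 0.18.

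**Figure D4:**
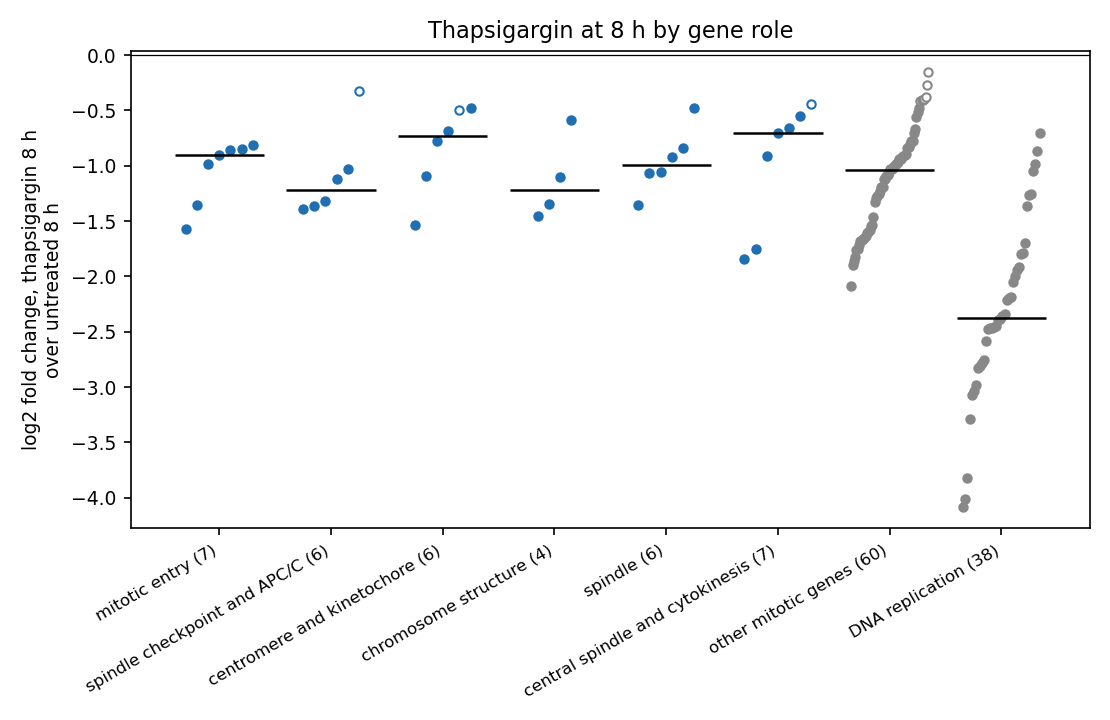
Log2 fold change of thapsigargin over untreated cells at 8 h (vertical axis) for the 36 genes by role (blue) and for 60 other mitotic genes and 38 DNA replication genes (grey); filled points were called at an adjusted p under 0.05 and lines are medians. The medians of the roles run from -0.70 to -1.22 and that of the DNA replication genes is -2.37.

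At 1 h thapsigargin had called none of the 36 in either direction (8.79% of all genes were called), with a median of 0.01 against -0.02, 0 at an unadjusted p under 0.05, 0 by DESeq2 and 8 in a fit on the 1 h groups alone. The effect at 8 h was lower than that at 1 h in 29 of 36 genes by the interaction test, where 24.8% of all genes were. The largest of these differences were -1.66 ± 0.32 in Aurkb and -1.61 ± 0.31 in Mki67. Thapsigargin cells at 8 h against thapsigargin cells at 1 h gave 35 of 36 lower (30.8% of all genes). Thapsigargin and IFN-gamma were both compared with the same 4 untreated libraries at 8 h. Set directly against IFN-gamma at 8 h, thapsigargin had 33 of 36 lower (31.5% of all genes), with a median of -0.85, from -1.67 in Top2a to -0.18 in Cdc20.

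Beside these falls, 8 of 9 progenitor markers and 5 of 11 premyelinating and myelin markers were called lower with thapsigargin at 8 h, where 31% of all genes were. Of the astrocyte markers 2 of 8 were called lower, which is not above the share of all genes. Progenitor markers summed to 3574 to 4043 CPM against 7624 to 8543 CPM in untreated libraries, myelin markers to 665 to 1301 CPM against 2053 to 3320.3 CPM, and none of the 20 genes was at 0. Astrocyte markers summed to 227 to 274 CPM against 369 to 491 CPM, without overlap, and of them Gja1 was at 0 in 1 of the 40 libraries. Neuron markers summed to 1043 to 1134 CPM against 1145 to 1279 CPM, with 4 of 7 tested called higher and 1 lower (29.6% and 31% of all genes were). The part of these lists in the mitotic result was not tested.

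The 36 genes varied together over the libraries. As a description, the median Pearson correlation over the 630 gene pairs was 0.947 across the 40 libraries, with a lowest pair of 0.726, and 0.944 once each group's mean had been subtracted. These points share library and depth, and the libraries that stood apart weigh on them. Each gene was also set against the median of the 36 in the same library, as a log2 difference of CPM plus 0.5, which shows unequal change within a library and not which gene moved. On this scale libraries with and without IFN-gamma did not overlap in 0 genes above and 1 below at 1 h. The counts were 2 above and 10 below at 8 h, 6 and 7 at 24 h, and 4 and 1 at 48 h. With thapsigargin they were 9 above and 4 below at 1 h, where no gene was called, and 11 and 14 at 8 h. Non-overlap was thus common among the 36, and no share over all genes was computed on this scale. Top2a, Cdc20 and Aurkb are given as examples. Top2a lay 2.91 to 3.05 above that median in untreated libraries at 8 h and 3.30 to 3.35 above it with IFN-gamma. The ranges were 2.95 to 3.06 and 3.45 to 3.56 at 24 h, and 2.90 to 3.08 and 3.39 to 3.48 at 48 h. All 4 IFN-gamma libraries exceeded all 4 untreated ones at each of these times, including both 48 h libraries that stood apart, with mean differences of 0.36, 0.49 and 0.43. At 1 h the ranges were 3.01 to 3.06 and 3.05 to 3.15, which overlap.

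**Figure D5:**
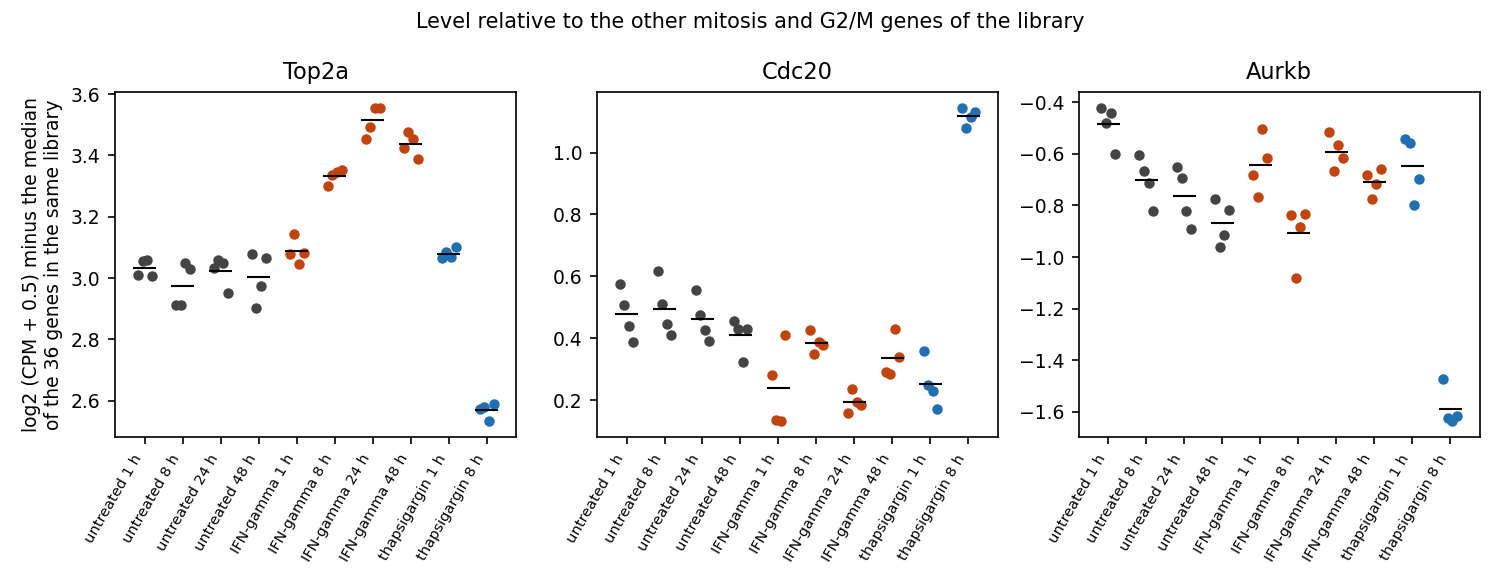
Log2 difference between a gene and the median of the 36 genes of the same library (vertical axes, CPM plus 0.5) for Top2a, Cdc20 and Aurkb in each library, by group (horizontal axes, 4 libraries each); lines are group means. Top2a is higher with IFN-gamma from 8 h on and lowest after 8 h of thapsigargin, where Cdc20 is highest and Aurkb lowest.

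With thapsigargin at 8 h Top2a lay 2.53 to 2.59 above the library's median gene, below the untreated range. Cdc20 lay 0.41 to 0.62 above it in untreated libraries and 1.08 to 1.14 above it with thapsigargin, a mean difference of 0.62. Aurkb lay at -0.82 to -0.60 and at -1.64 to -1.47, a mean difference of -0.89. None of these ranges overlapped. In untreated libraries at 48 h, where the 36 genes were also low, Cdc20 lay 0.32 to 0.46 above the median gene and Top2a lay 2.90 to 3.08.

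The rest of the mitotic programme was read from 60 other mitotic genes. In untreated cells from 24 to 48 h 59 of 60 were lower (median -1.07), where 18.7% of all genes were. With thapsigargin at 8 h 53 of 60 were lower (median -1.04), where 31% of all genes were. With IFN-gamma at 48 h 42 of 60 were higher (median 0.59), where 16.9% of all genes were, a count from the same libraries as the 25 of 36 above. Melk, a mitotic kinase gene, had log2 fold changes of -1.23 ± 0.22, -2.08 ± 0.23 and 0.81 ± 0.22 in these comparisons. Of the 38 DNA replication genes 38 were lower with thapsigargin, with a median of -2.37, more than the -0.95 of the 36 mitotic genes, from -4.08 in Chaf1b, a histone loading subunit, and -4.01 in the thymidine kinase gene Tk1. In untreated cells from 24 to 48 h the replication genes and the mitotic genes had medians close to each other, with 37 of 38 lower and a median of -1.07. With IFN-gamma at 48 h 30 of 38 were higher (median 0.72). The same shares of all genes apply to the replication genes. The IFN-gamma counts of both lists were not recomputed with single libraries left out.

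Among 21 regulators of G2/M transcription, 4 higher and 14 lower were called with thapsigargin at 8 h, 2 higher and 11 lower in untreated cells from 24 to 48 h, and 8 higher and 3 lower with IFN-gamma at 48 h. The shares of all genes called higher and lower were 29.6% and 31%, 21.9% and 18.7%, and 16.9% and 19.9% in these comparisons. Mybl2, the B-Myb factor that joins MuvB in S phase, was at 34, 28.4, 40.1 and 32.8 CPM without and 9.60, 9.50, 7.15 and 6.43 CPM with thapsigargin, a log2 difference of -2.04 ± 0.24 (SE; adjusted p = 5.7e-09). Foxm1, which takes over in G2, was at 92.8, 90.3, 105 and 89.7 and 46.9, 40.0, 32.2 and 39.3 CPM, a fold change of -1.25 ± 0.22 (SE; adjusted p = 7.5e-06). E2f1, an activator of S phase genes, and E2f8, a repressor of them that peaks in S and G2, had -2.98 ± 0.30 and -2.93 ± 0.23, and Lin9, a core MuvB subunit, -0.48 ± 0.11. The levels of each of these 5 in thapsigargin libraries lay below every untreated library.

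With IFN-gamma at 24 h 10 of 21 regulators were called higher (12.6% of all genes were) and 1 lower (10.5%), with a median of 0.31. Mybl2 was at 29.9, 30.1, 29.2 and 16.8 CPM without and 57.3, 31.8, 44.1 and 40.8 CPM with IFN-gamma, a fold change of 0.72 ± 0.22 (SE; adjusted p = 0.017). Untreated replicate 4 was again the low library. E2f1 had 0.72 ± 0.24 (SE; adjusted p = 0.027), Lin9 0.31 ± 0.11 (SE; adjusted p = 0.031) and Foxm1 0.51 ± 0.21 (SE; adjusted p = 0.084), the last short of the threshold. Without untreated 24 h replicate 4, a fit chosen after seeing the data, 3 of 21 were called higher and 1 lower, and Mybl2, E2f1 and Lin9 no longer passed, with fold changes of 0.55 (adjusted p = 0.093), 0.55 (adjusted p = 0.13) and 0.27 (adjusted p = 0.11). At 48 h Mybl2 had 0.93 ± 0.24 (SE; adjusted p = 0.0021), Foxm1 0.57 ± 0.22 (SE; adjusted p = 0.039) and Lin9 0.52 ± 0.11 (SE; adjusted p = 2.8e-04).

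The CDK inhibitors, which brake the cycle by binding cyclin-dependent kinases, did not move as 1 group. Cdkn1b, the p27 inhibitor that accumulates as progenitors stop dividing, was at 137, 137, 129 and 122 CPM in untreated and 365, 389, 335 and 329 CPM in thapsigargin libraries at 8 h, a fold change of 1.43 ± 0.08 (SE; adjusted p = 4.2e-17). It was also higher with IFN-gamma, by 0.67 ± 0.08 (SE; adjusted p = 3.0e-08) at 8 h, 0.40 ± 0.08 (SE; adjusted p = 2.5e-04) at 24 h and 0.30 ± 0.08 (SE; adjusted p = 0.004) at 48 h. In untreated cells from 24 to 48 h, while the mitotic genes fell, Cdkn1b had -0.10 ± 0.08 (SE; adjusted p = 0.33) and did not pass. Cdkn1a, the p21 inhibitor, was higher with thapsigargin at 8 h by 0.55 ± 0.18 (SE; adjusted p = 0.011) and lower in untreated cells at 48 h than at 24 h by -0.67 ± 0.19 (SE; adjusted p = 0.0052). Cdkn1c, the p57 inhibitor, was the 1 inhibitor called higher in untreated cells over those hours, going from 7.06, 7.26, 4.06 and 18.1 CPM to 24.4, 12, 34.2 and 22 CPM, a fold change of 1.32 ± 0.32 (SE; adjusted p = 0.0014). Its 24 h replicate 4 lay above the other 3, as it did for the myelin markers, and the groups overlapped.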

How the data were processed

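RNA was sequenced from 40 libraries in 10 groups of 4. The gene table holds whole-number counts of reads per gene as the authors deposited them, and a second deposited table holds estimated counts per transcript, which were summed per gene and rounded as an alternative. Per the submitters' processing notes, the tools were STAR, featureCounts, edgeR and kallisto, with no role stated. The genome build, annotation and strand setting were not given in the sources used here, so that reads of overlapping or antisense genes cannot be separated. The table's identifiers were matched to symbols through GENCODE M21 for 38872 of 39056 rows.

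Genes were kept by edgeR's filterByExpr over the groups (15135 genes), scaled by TMM, and fitted once with 10 group means over all 40 libraries (edgeR 4.0.16 in R 4.3.3, quasi-likelihood test, 30 residual degrees of freedom, Benjamini-Hochberg adjustment over all genes, threshold 0.05). The levels in the text are TMM-scaled CPM, computed from the deposited counts. Fold changes are log2 with a prior count of 0.125 and their standard errors. Libraries held 13165483 to 22651092 reads on genes, and no pair of replicates agreed within sampling noise (chi-square per degree of freedom at least 6.04). Single genes were also tested by exact permutation. The fit was tested on simulated counts, with changed genes drawn from those above a minimum mean count. For the IFN-gamma 48 h comparison, 14674 genes were in the fit. Of the genes changed 1.5-fold 80.6% were called, of those changed 2-fold 100%, and 3.61% of calls were false. For thapsigargin at 8 h these rates were 73.1%, 98.5% and 6.22%. For untreated 48 h against 24 h they were 74.6%, 100% and 5.18%. In these last comparisons the false share lay above the threshold of 0.05. Those counts were drawn with 1 dispersion trend for all groups. The measured groups differed in spread. The summed mitotic level had an SD of 2388 CPM in IFN-gamma 48 h libraries and 335 CPM in untreated 1 h libraries. The simulated rates therefore cannot tell how many of the IFN-gamma 48 h calls are false. Alternatives were the RLE scaling, DESeq2 1.42.0, no filter, a fit on the compared groups, the library numbers 1 to 20 and 21 to 40 apart or as a term, a Y-linked covariate, the transcript table and leaving out each library. Leaving out untreated 48 h replicate 2 and IFN-gamma 48 h replicate 1 together was planned, and leaving out untreated 24 h replicate 4 as well was chosen after seeing the data.

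The genes, roles, lists and tests were chosen with earlier results of these data known. All 36 genes are named. Values per library are given for Cdk1, Ccnb1, Top2a, Mki67, Cdc20, Aurkb, Cenpa and Kif11, and for the 3 largest and 3 smallest changes with IFN-gamma at 48 h, as far as a comparison turns on them. From other lists, Foxm1, Mybl2, Lin9, E2f1, E2f8, Cdkn1a, Cdkn1b and Cdkn1c and up to 4 called genes with the largest change are named. Promoter windows are RefSeq's, GRCm38.p6. Neuron markers summed to 853 to 1398 CPM and astrocyte markers to 227 to 645 CPM over the 40 libraries, and the text gives them by group where they moved with a result. Few genes made up these sums. In CPM before TMM scaling, Map2 had a median of 1087, against 6.03 for Snap25 and 0.62 for Rbfox3. Aldoc and Slc1a3 had medians of 182 and 120, against 9.41 for Gfap, 2.85 for Aqp4 and 0.44 for Gja1. The sums are therefore no measure of neuron or astrocyte content.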

Additional observations from a re-analysis of the deposited data

Results flagged for a closer look

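Untreated 24 h replicate 4 stood far below the other 3 libraries of its group in several genes named for full values. It held Top2a at 659 CPM, Kif11 at 235 CPM, Ccnb1 at 182 CPM, Cenpf at 147 CPM, Cdk1 at 114 CPM, Cdc20 at 111 CPM, Ccnb2 at 56.5 CPM and Aurkb at 45.5 CPM, and its summed level of the 36 genes was 4374 CPM. The same library held the myelin basic protein gene Mbp at 325 CPM, against 90 to 120 CPM in the other 3. Cenpa stood apart in 3 other libraries, at 108 CPM as the lowest of IFN-gamma 1 h (replicate 3), at 101 CPM as the lowest of IFN-gamma 8 h (replicate 4) and at 62.4 CPM as the highest of untreated 48 h (replicate 2). Over all 36 genes and 10 groups, 37 of 360 sets of 4 libraries held a library this far from the rest (10.28%), 24 of them through untreated 24 h replicate 4. Chance flags about 1 in 20 such sets, and genes of 1 library are not independent.

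The effect of IFN-gamma differed between 48 h and 8 h in 2 of the 36 genes, Aurkb with a difference of 0.99 and Birc5 with 0.83 on the log2 scale, where 7.2% of all genes were called higher. That count is no larger a share than over all genes, and it ran from 0 to 30 when 1 library was left out. The effect of thapsigargin differed between 8 h and 1 h in 29 of 36, all lower, where 24.8% of all genes were called lower. Among genes named for full values these differences were -1.66 in Aurkb, -1.61 in Mki67, -1.37 in Top2a, -1.36 in Cdk1, -1.11 in Kif11, -0.87 in Cenpf, -0.77 in Ccnb2, -0.74 in Anln and -0.71 in Ccnb1.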

How the results depend on the processing

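No paired analysis was possible because the labels give no replicate numbers, and the numbers used here follow accession order. All counts below are of 36 genes. Single genes were recomputed for the 11 genes with full values in 4 comparisons (IFN-gamma at 24 and 48 h, thapsigargin at 8 h and untreated 48 h against 24 h). Of these 803 values 728 kept their side of the threshold, 58 lost the call and 17 gained it, with 41 of the losses and 16 of the gains for IFN-gamma at 48 h. No called value changed sign, but 24 values that were not called did, 19 at 24 h and 5 at 48 h with IFN-gamma, among them Anln at 48 h in 4 fits. With IFN-gamma at 48 h the count of 25 became 0 in a fit on the compared groups, 1 in library numbers 1 to 20, 15 in numbers 21 to 40 and 9 with the Y-linked covariate, and ran from 1 to 35 when 1 library was left out. At 24 h the 1 gene became 0 in numbers 1 to 20 and 3 in numbers 21 to 40, and 0 to 2 without 1 library. For IFN-gamma from 24 to 48 h the 35 became 0 on the compared groups and 0 in numbers 1 to 20, and 0 to 36 without 1 library. In numbers 1 to 20, with 2 libraries a group, the other counts were 17 for thapsigargin at 8 h (33 in all libraries), 17 for thapsigargin 8 h against 1 h (35), 15 for thapsigargin against IFN-gamma (33), 5 for the difference of thapsigargin effects (29), 0 for untreated 48 h against 24 h (36) and 7 for IFN-gamma 48 h against 1 h (36). In fits on the compared groups, counts of 0 became 5 for IFN-gamma at 8 h, 8 for thapsigargin at 1 h, 15 for untreated 8 h against 1 h, 28 for IFN-gamma 8 h against 1 h and 1 for IFN-gamma 24 h against 8 h. IFN-gamma 8 h against 1 h also gave 1 with a term for the library numbers and 1 with DESeq2. The difference of IFN-gamma effects between 48 h and 8 h, with 2 genes, gave 1 with no filter, 0 in either range of library numbers, 0 on the compared groups, 0 from the transcript table, 4 with DESeq2, 6 without both 48 h libraries that stood apart, and 0 to 30 without 1 library. Without all 3 libraries that stood apart, a fit chosen after seeing the data, counts were 1 for IFN-gamma at 24 h, 23 at 48 h, and 36 for 48 h against 24 h in both untreated and IFN-gamma cells. Fewer samples enter the fits on compared groups, on library numbers and with a library left out. The cause of the other moves was not tested. All 36 genes passed the filter on low counts, so that depth removed none of them from the tests.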

Other observations

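Among the core subunits of the APC/C, the ligase that Cdc20 and Ube2c serve, 4 of 15 were higher and 9 lower with thapsigargin at 8 h (29.6% and 31% of all genes were), with a median log2 fold change of -0.34, from 1.21 ± 0.06 (SE; adjusted p = 5.7e-19) in Anapc16 to -0.85 ± 0.09 (SE; adjusted p = 1.0e-09) in Anapc11. With IFN-gamma at 48 h 0 of 15 were higher and 2 lower (16.9% and 19.9% of all genes were), with a median of 0.03.

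Of 15 targets of p53 that passed the filter, 9 were higher and 0 lower with IFN-gamma at 48 h (16.9% and 19.9% of all genes were), and Fas, the death receptor gene, had the largest change at 3.17 ± 0.19 (SE; adjusted p = 7.2e-16), after 3.14 ± 0.18 (SE; adjusted p = 1.5e-16) at 8 h. Interferon-gamma is also known to induce Fas directly. With thapsigargin at 8 h 5 of 15 were higher and 9 lower (29.6% and 31% of all genes were), and Gadd45a, a stress-induced growth arrest gene, was higher at 2.30 ± 0.19 (SE; adjusted p = 1.3e-12).

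The summed Y-linked level of IFN-gamma replicates 1, 2, 3 and 4 was 7.28, 316, 0.661 and 311 CPM at 8 h, 6.74, 309.8, 0.656 and 305 CPM at 24 h and 8.18, 339, 1.15 and 324 CPM at 48 h. High and low libraries had the same order at 8, 24 and 48 h. The order differed at 1 h, with 274, 6.93, 0.734 and 290 CPM, where replicate 1 was high and replicate 2 low. Replicate numbers therefore did not track this level over all times. From 24 to 48 h the summed level of the 36 genes went from 9627 to 8099, from 6549 to 2841, from 9029 to 3258 and from 8092 to 4887 CPM in the libraries of the same number, lower in 4 of 4. The labels do not say that libraries of 1 number share a source, and no paired test was made.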
